A study of Mus musculus with 6 samples.

Results

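Genes that carry, limit or answer BMP and TGF-beta signals were followed in cells labelled SaOS2, a human line established from an osteosarcoma. The set holds 10 genes chosen by symbol: the ligands TGFB1 and BMP4, the receptor TGFBR2, the signal carrier SMAD3, the inhibitory SMADs SMAD6 and SMAD7, and the inhibitors of differentiation ID1, ID2, ID3 and ID4. Of these, 9 had a row among the 17144 genes listed, and ID4 was not analysed here. Messenger RNA was sequenced in 3 libraries titled D and 3 titled C, all of the same labelled line. The series title names the effect of DDTC(I), but neither letter is explained by any label, and no dose, time or culture is given, so each difference is D minus C and each p covers the spread between libraries that may be technical repeats. Total counts ran from 18446443 to 20602771 per library. The labels name the mouse, while the gene symbols follow human naming.

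The osteoblast identity of the cells was read from 7 markers. SP7, the osteoblast transcription factor osterix, had at most 1 count in any library, and BGLAP and IBSP, which encode proteins of mineralized bone, had at most 2. ALPL, the alkaline phosphatase of osteoblasts, had 8 to 15 counts. RUNX2, the early bone regulator, and COL1A1, a bone collagen gene, were expressed, and both fell in D (log2 fold changes −1.10 and −2.23). SPP1, which encodes the bone matrix protein osteopontin, had 29, 50 and 51 counts in D and 10, 9 and 2 counts in C and rose (2.79 ± 0.43; adjusted p = 0.00079, edgeR). Of the 4 tested markers of this list 1 was called higher and 2 lower, with a summed level of 16 to 19.1 CPM in D and 42 to 47.2 CPM in C. SP7, BGLAP and IBSP were thus at or near the floor in both groups. SPP1 was above it in D but near it in C, where replicate 3 had 2 counts, so the size of its rise is imprecise. The cells are called by their label only. Markers of other cell types also moved. Of 4 tested epithelial markers 3 were called higher, with a summed level of 125 to 159 CPM in D and 80.8 to 90 CPM in C. Most of that sum was KRT8, which was not called, and KRT18, which was. Also called were ESRP1, with 359 to 446 counts in D and 25 to 30 in C, and CDH1, with 20 to 44 and 8 to 11. EPCAM and KRT19 had at most 7 and 11 counts and were not tested. Of 4 fibroblast markers 1 was called higher and 3 lower (775 to 915 CPM in D, 1590 to 1650 CPM in C, most of it THY1). Of 3 endothelial markers 2 were called lower (12 to 13.8 CPM in D, 18 to 23.3 CPM in C). Of 4 hematopoietic markers 1 was tested and 0 were called (459 to 501 CPM in D, 478 to 499 CPM in C, nearly all of it CD68). No marker was at 0 in every library. CD3E, a marker of T cells, and PTPRC, a marker of blood cells, had at most 3 and 8 counts. CD14, also of the hematopoietic list and not tested, had 11, 5 and 15 counts in D and 3, 1 and 2 counts in C. The part of these markers in the results that follow was not tested.

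TGF-beta ligands bind type II receptors such as TGFBR2, which activate type I receptors that phosphorylate SMAD2 and SMAD3. BMP ligands signal in the same way through SMAD1, SMAD5 and SMAD9, and both branches share SMAD4. SMAD6 and SMAD7 block the receptors and are themselves switched on by the pathway, a negative feedback. The ID genes are early targets of BMP signals and encode helix-loop-helix proteins without a DNA-binding region, which hold E proteins away from DNA and delay differentiation. In the bone lineage BMP signals promote osteoblast formation.

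Read per length, ID3, ID1 and TGFB1 were the most abundant of the set in both groups. FPKM (fragments scaled by gene length and library total, as deposited) makes levels comparable between genes. In D, mean FPKM ran from ID3 (186) over ID1 (92.0), TGFB1 (61.5), ID2 (17.6), TGFBR2 (14.2), SMAD3 (11.9), SMAD7 (9.26) and SMAD6 (0.984) to BMP4 (0.540). The ranges of ID2 and TGFBR2, of TGFBR2 and SMAD3 and of SMAD3 and SMAD7 overlapped in D, and the other neighbours did not. In C the order was ID3 (337), TGFB1 (131), ID1 (97.8), SMAD3 (37.9), TGFBR2 (18.03), SMAD7 (3.48), ID2 (2.97), SMAD6 (2.60) and BMP4 (1.56), and of these neighbours SMAD7 and ID2 overlapped. By mean FPKM, ID2 therefore stood at rank 4 of the 9 in D and at rank 7 in C. In D replicate 2, however, ID2 (12.8) lay below TGFBR2 (17.6) and SMAD3 (14.5), while in D replicates 1 and 3 it lay above both. FPKM does not remove the differences between D libraries along gene length that are described below.

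**Figure D1:**
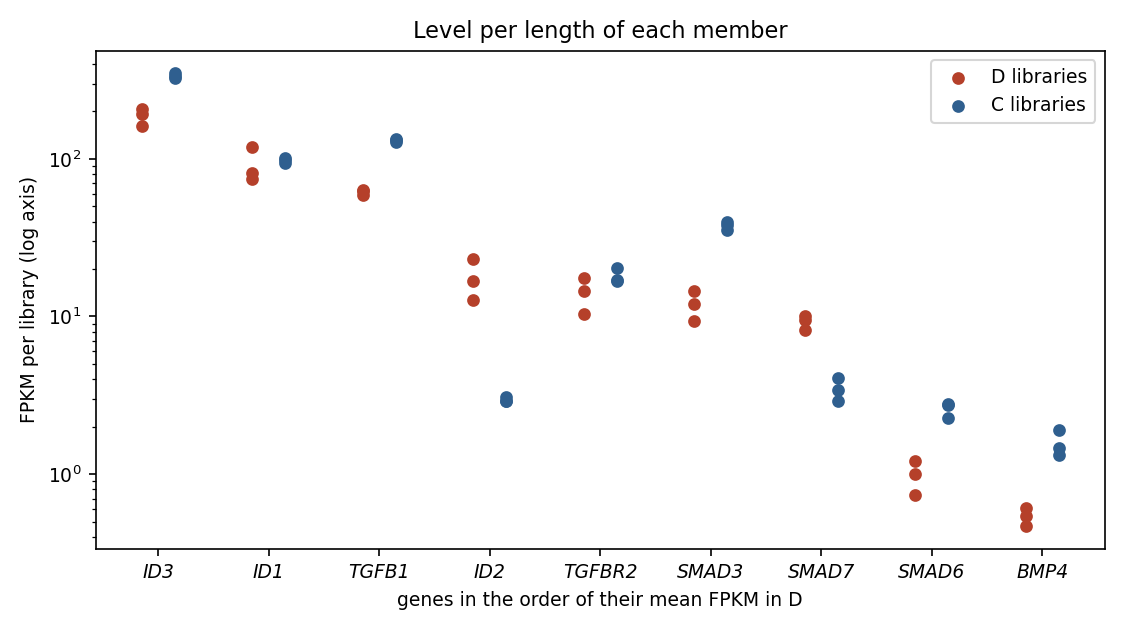
FPKM of each gene in each library on a log axis, D libraries left and C libraries right of each gene's position, genes ordered by their mean in D. ID3 is highest in both groups (mean 186 in D, 337 in C), and ID2 stands in the middle of the set in D (17.6) and among the least abundant genes in C (2.97).

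All 9 genes passed the filter on low counts. ID2 and SMAD7 rose, SMAD3, BMP4, SMAD6, TGFB1 and ID3 fell, and ID1 and TGFBR2 did not pass the test. The test was the quasi-likelihood test of edgeR on counts of all 12682 genes that passed the filter, with a call at a Benjamini-Hochberg adjusted p under 0.05. It called 26.8% of all tested genes higher and 27.7% lower, 54.4% in all, beside 2 and 5 of the 9 members. The members were chosen with earlier results of these data known, so their counts describe the set and are no test of it. With library size as the only scaling, all tested genes split into 2586 higher and 4449 lower in place of 3393 and 3509, and the median log2 change of all genes shifted by −0.15, while the members split as before. A change of at least 2-fold was called higher for 8.37% and lower for 10.1% of all genes, and for 2 and 3 members. The D and C libraries did not overlap for 7 members and for 62.7% of all genes. All D libraries lay above all C libraries for 2 members and 30.6% of all genes, and below them for 5 members and 32.1%. The median log2 fold change was −0.70 over the 9 members and −0.02 over all tested genes. In RNA from whole cultures, fewer cells that express a gene and less RNA per cell cannot be told apart.

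**Figure D2:**
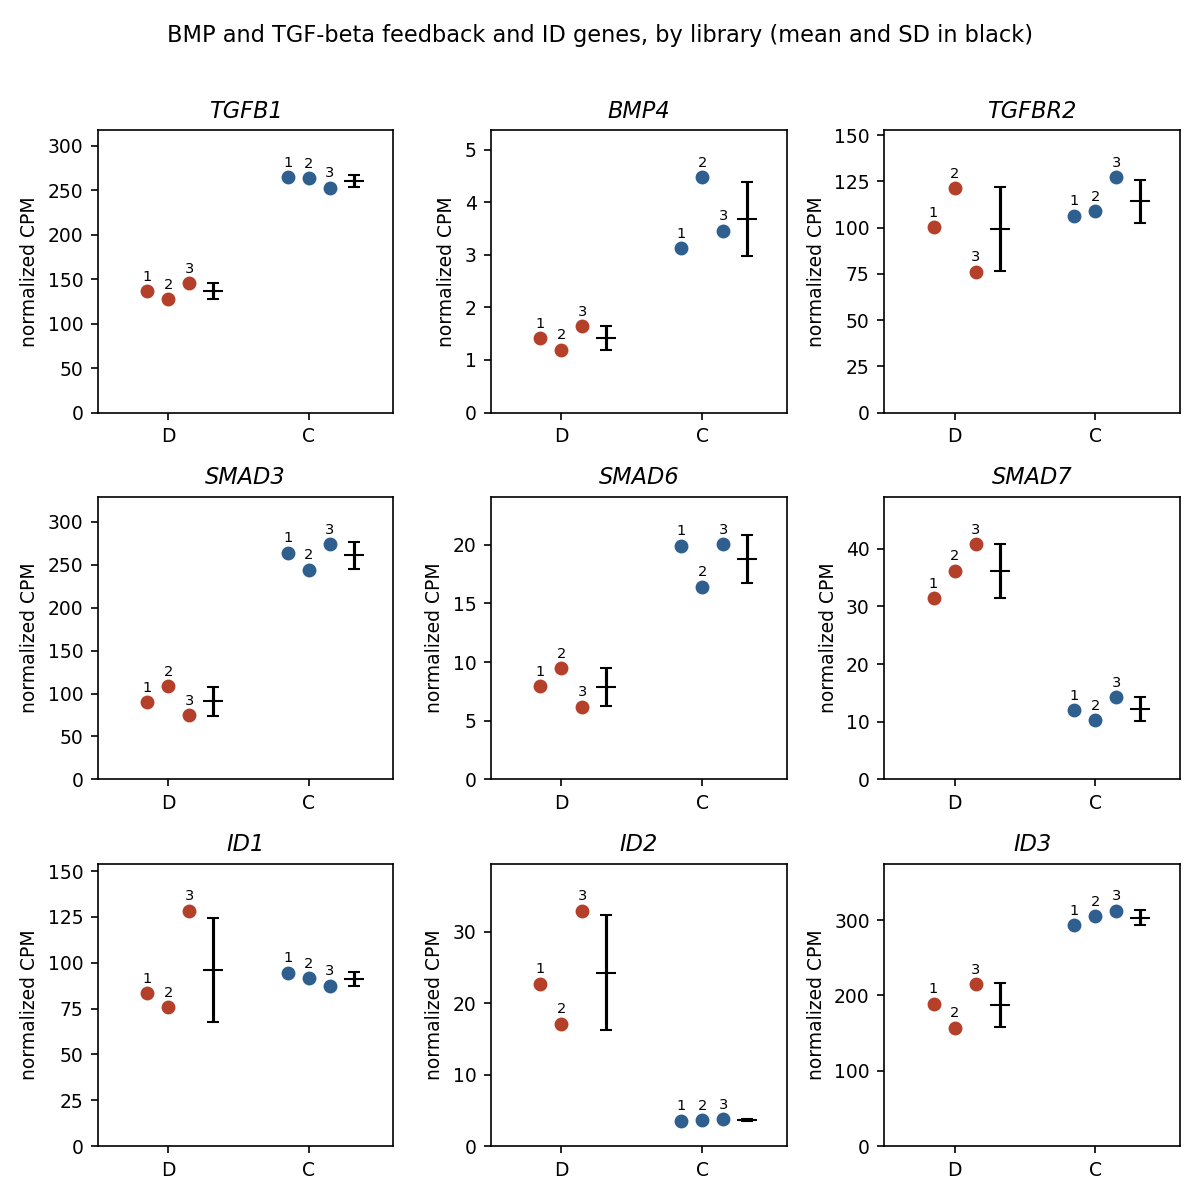
Normalized CPM of the 9 genes in each library (replicate number beside each point), D left and C right, with mean and SD in black, each axis from 0. The D points of ID2 and SMAD7 lie above all C points, those of TGFB1, BMP4, SMAD3, SMAD6 and ID3 below them, and those of ID1 and TGFBR2 overlap with C.

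The ligand genes fell. TGFB1, which encodes the main TGF-beta ligand, had 136.5, 128 and 146 CPM (TMM-normalized counts, scaled to one library size) in D replicates 1, 2 and 3, against 265, 264 and 253 CPM in C. All D libraries lay below all C libraries, at 0.524 times the C mean. The log2 fold change was −0.93 ± 0.10 (SE; adjusted p = 0.00011, edgeR), and TGFB1 had the smallest spread in D of the 9 genes, with a coefficient of variation of 6.57%. BMP4, a bone morphogenetic protein, was the least abundant member by FPKM in both groups. It had 25, 23 and 29 counts in D and 61, 97 and 73 counts in C. In CPM these were 1.41, 1.197 and 1.65 in D and 3.12, 4.48 and 3.46 in C, again without overlap, and the log2 fold change was −1.38 ± 0.22 (adjusted p = 0.00096, edgeR). BMP4 was also the member with the largest spread in C (coefficient of variation 19.2%).

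TGFBR2, the type II receptor of TGF-beta, did not pass the test. It had 100.2, 121 and 76.2 CPM in D and 106, 109 and 127 CPM in C, so that D replicate 2 lay among the C libraries and D replicate 3 far below them. The log2 fold change was −0.20 ± 0.17, with a 95% interval from −0.58 to 0.18 (adjusted p = 0.33, edgeR). Values without one library ran from −0.34 without D replicate 2 to −0.03 without D replicate 3, and neither passed the test. The log2 ratio of TGFB1 to TGFBR2 FPKM was 2.11, 1.74 and 2.60 in D and 2.98, 2.94 and 2.66 in C.

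SMAD3, which carries TGF-beta signals to the nucleus, fell. It had 90.1, 109 and 74.4 CPM in D, against 264, 244 and 274 CPM in C. All D libraries lay far below the C libraries, the D mean was 0.349 times the C mean, and the log2 fold change was −1.52 ± 0.15 (adjusted p = 7.7e-05, edgeR).

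The inhibitory SMADs went opposite ways. SMAD6, which mainly blocks BMP receptors, had 7.95, 9.47 and 6.19 CPM in D and 19.9, 16.45 and 20.1 CPM in C, a log2 fold change of −1.25 ± 0.17 (adjusted p = 0.00042, edgeR). SMAD7, which blocks TGF-beta as well as BMP receptors, had 31.4, 36.2 and 40.9 CPM in D and 12.04, 10.3 and 14.3 CPM in C. Its D mean was 2.96 times its C mean, with no overlap, and the log2 fold change was 1.57 ± 0.16 (adjusted p = 9.9e-05, edgeR). Their balance per length shifted accordingly. The log2 ratio of SMAD7 to SMAD6 FPKM was 3.03, 2.98 and 3.77 in D, against 0.32, 0.37 and 0.55 in C, and that of SMAD7 to SMAD3 was −0.35 ± 0.40 in D and −3.45 ± 0.15 in C (SD, n = 3 each; exact 2-sided permutation p = 0.1 for each ratio).

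The ID genes did not move together. ID2 rose, ID3 fell and ID1 did not pass the test. ID2, which also binds the retinoblastoma protein, had 22.7, 17.1 and 32.9 CPM in D, against 3.59, 3.60 and 3.79 CPM in C. Its counts in C were 70, 78 and 80, as low as those of BMP4. The lowest D library lay well above the highest C library, the D mean was 6.63 times the C mean, and the log2 fold change was 2.72 ± 0.24 (adjusted p = 5.5e-05, edgeR). By the size of its change ID2 ranked 186 of the 12682 tested genes. ID3, the most abundant member, had 189, 157 and 215 CPM in D and 293, 305 and 312 CPM in C. Its log2 fold change was −0.70 ± 0.13 (adjusted p = 0.0020, edgeR), without overlap.

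ID1, the family member most used as a readout of BMP signals, had 83.4, 75.9 and 128 CPM in D and 94.5, 91.6 and 87.4 CPM in C. D replicates 1 and 2 lay below all C libraries and D replicate 3 above them. The log2 fold change was 0.07 ± 0.19, with a 95% interval from −0.35 to 0.50 (adjusted p = 0.76, edgeR). Without D replicate 3 it was −0.18 and without D replicate 2 it was 0.25, and neither passed the test (adjusted p = 0.14 and 0.22, edgeR). With library size only it was −0.088, so no direction is given for ID1.

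The makeup of the ID messages changed with these shifts. The FPKM of ID1, ID2 and ID3 summed to 289.9, 248 and 349.9 in D and to 429, 438 and 445 in C. ID2 made up 5.80%, 5.15% and 6.62% of that sum in D, against 0.678%, 0.666% and 0.693% in C. ID3 made up 66.1%, 64.6% and 59.2% in D and 75.7%, 77.0% and 78.2% in C, and so remained the leading ID message in every library. The log2 ratio of ID2 to ID3 FPKM was −3.44 ± 0.25 in D and −6.82 ± 0.03 in C, and that of ID1 to ID3 was −1.04 ± 0.22 in D and −1.78 ± 0.10 in C (SD, n = 3 each). For each of the 6 ratios computed among the members, that of TGFB1 to TGFBR2 included, the exact 2-sided permutation p was 0.1, the smallest that 3 against 3 libraries allow, and 0.1 after Benjamini-Hochberg adjustment over the 6.

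**Figure D3:**
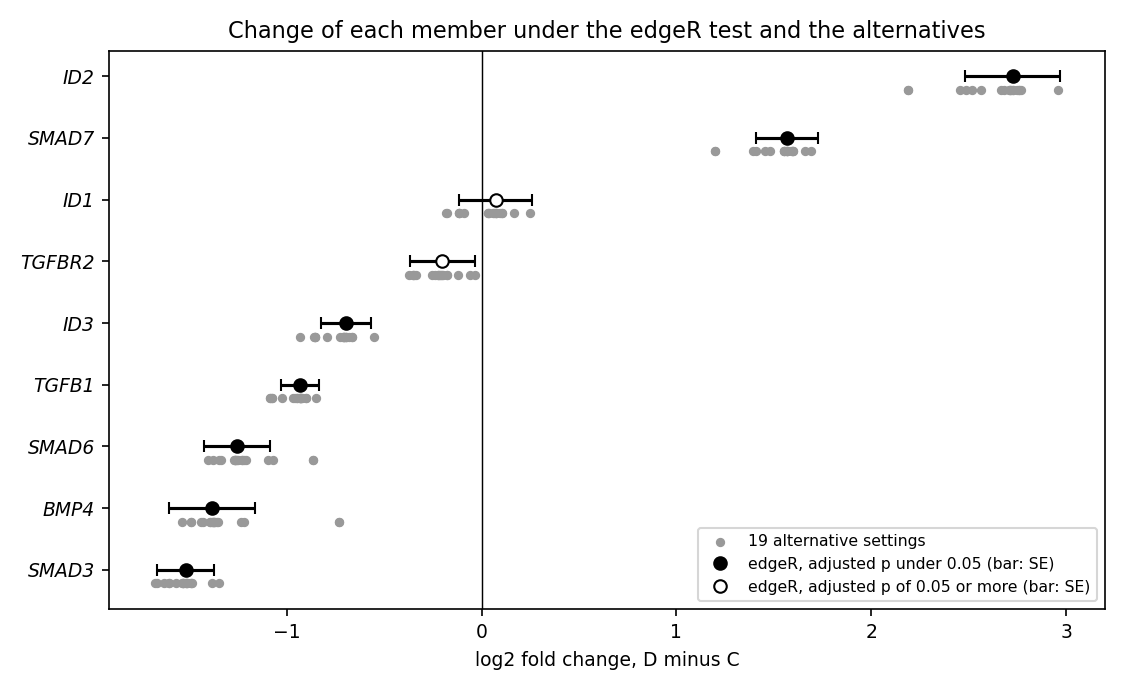
Log2 fold change (D minus C) of each gene from edgeR with its SE, filled where the adjusted p was under 0.05, and in grey the values from 19 alternative settings. Only the grey points of ID1 lie on both sides of 0 (−0.18 to 0.25), while those of ID2 run from 2.19 to 2.96.

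The D libraries differed among themselves along gene length, and the members followed that difference. The slope of log2 CPM (as a deviation from the group mean) on log2 gene length over all tested genes was 0.0126, 0.170 and −0.183 in D replicates 1, 2 and 3, and between −0.0492 and 0.0504 in C. The 3 longest members, TGFBR2, SMAD3 and SMAD6 (6673 to 7623 bp by the lengths that the FPKM values imply), were highest in D replicate 2 and lowest in D replicate 3. The other 6, of 950 to 3698 bp, were highest in D replicate 3, and 5 of them were lowest in D replicate 2. ID2 lay 0.49 above the D mean of log2 CPM in D replicate 3 and 0.45 below it in D replicate 2, while SMAD6 lay 0.32 below in D replicate 3 and 0.28 above in D replicate 2. After removal of each library's length trend, the same number of members was called in each direction, and ID1 had a log2 fold change of −0.18 (adjusted p = 0.097, edgeR). The calls of the 7 called members held without D replicate 2 and without D replicate 3.

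**Figure D4:**
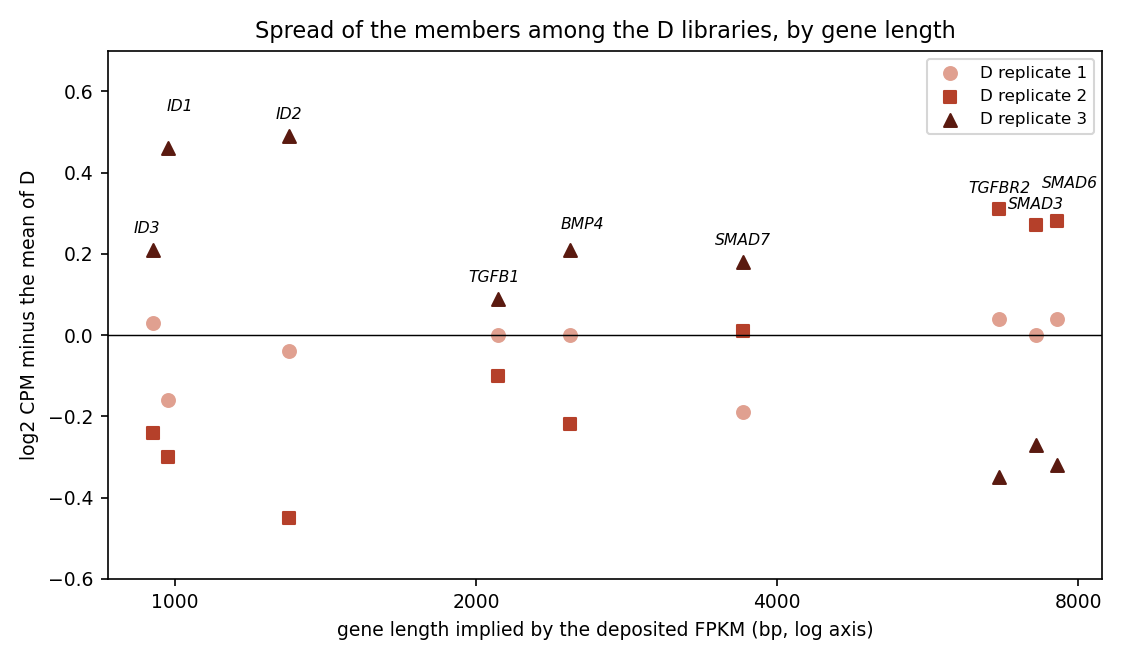
Deviation of each member's log2 CPM from the mean of the D group, by gene length on a log axis, for the 3 D libraries. Short members such as ID1 (0.46) are high in D replicate 3, and the 3 longest members, SMAD6 among them (−0.32), are low in it.

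The other genes of the pathway fell more often than they rose. Of 111 genes named in a list sorted by role, 106 had a row and 82 were tested, of which 15 were called higher (18.3%) and 36 lower (43.9%), with a median log2 fold change of −0.31. Across the whole table the shares were 26.8% higher and 27.7% lower and the median was −0.02, and they are also the background of the counts by role that follow. Of the 82, 10 were called higher and 16 lower with at least a 2-fold change, beside 8.37% and 10.1% of all tested genes. The list was chosen with earlier results of these data known, so its shares describe the list and are no test of it.

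TGF-beta and activin ligands held large changes in both directions. Of 7 tested, 2 rose and 4 fell. TGFB2, with 1.79 ± 0.34 CPM in D and 9.24 ± 1.16 CPM in C, and TGFB3, with 3.28 ± 0.49 CPM in D and 15.8 ± 0.69 CPM in C (SD, n = 3 each), fell with TGFB1, by 2.36 and 2.27 on the log2 scale. All 3 TGF-beta isoform genes were thus lower in D. GDF11 (−0.97) also fell, and so did the sparse INHA (−1.73 ± 0.35), the inhibin alpha subunit, with 7, 5 and 3 counts in D and 16, 23 and 19 counts in C. GDF15, a stress-responsive ligand, rose to 78.8 ± 18.3 CPM in D, against 16.3 ± 1.88 CPM in C (log2 fold change 2.27 ± 0.18), and INHBE, an activin subunit, to 200 ± 20.1 CPM in D, against 66.8 ± 2.53 CPM in C (1.58 ± 0.11).

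Of 5 tested BMP and GDF ligands, 2 rose and 2 fell. BMP6 fell as BMP4 did (23.6 ± 1.53 CPM in D, 50.8 ± 1.55 CPM in C; log2 fold change −1.11 ± 0.11), and so did the sparse GDF6 (−1.76 ± 0.34). BMP2, an inducer of bone, rose to 3.06 ± 0.45 CPM in D, against 1.40 ± 0.20 CPM in C (1.12 ± 0.21). BMP7 had 11, 15 and 12 counts in D and 1, 0 and 0 counts in C and was called higher, with no fold given at these counts.

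Of 9 tested genes for storing and activating TGF-beta, 1 rose and 5 fell, and 4 fell without C replicate 1, C replicate 3 or D replicate 1. FURIN, a protease that cleaves the TGF-beta precursor, fell to 144 ± 9.26 CPM in D, against 311 ± 7.64 CPM in C (log2 fold change −1.11 ± 0.10), and THBS1, which can activate latent TGF-beta, by 1.17. ITGB8, an integrin subunit that activates it (−1.09), LTBP1 (−0.66) and LTBP4 (−0.52), latent TGF-beta binding proteins, fell as well. LTBP2, a member of that protein family, was the one that rose (1.19 ± 0.18).

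Of 12 tested receptors and co-receptors, 1 rose and 6 fell. The co-receptor TGFBR3 fell to 7.74 ± 2.73 CPM in D, against 21.8 ± 0.18 CPM in C (log2 fold change −1.49 ± 0.22). The activin receptor ACVR2B (−1.33), the co-receptor ENG (−0.78), and ACVR1B, ACVRL1 and the BMP receptor BMPR2 fell too. The type I receptor TGFBR1, the partner of TGFBR2, was not called (−0.45 ± 0.32). The rise of ACVR1 (0.29 ± 0.09) was called in only 8 of the 19 alternative settings. Among others, it was lost with library size only (0.14), with replicate numbers blocked, in each limma-trend fit on FPKM, and without D replicate 1 or any one of the C libraries. Without C replicate 1 the receptors had 0 higher and 3 lower.

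Of the 5 other SMADs that carry the signal, 0 rose and 4 fell, and SMAD2 was not called (0.02 ± 0.10). SMAD1, of the BMP branch, had 11.3 ± 2.9 CPM in D and 23.5 ± 1.94 CPM in C (log2 fold change −1.05 ± 0.19). The smaller falls of SMAD9 (−0.94), SMAD5 (−0.47) and SMAD4 (−0.42) were fragile: without C replicate 3 or without D replicate 1, SMAD1 alone was called, and without C replicate 1 or 2, or with replicate numbers blocked, 2 of the 5 were.

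Of 8 tested genes in the group of extracellular antagonists and BAMBI, 0 rose and 6 fell. NOG, which encodes the BMP trap noggin, had 4.25 ± 0.37 CPM in D and 13.6 ± 1.23 CPM in C (log2 fold change −1.67 ± 0.14). FST, the activin trap follistatin (−0.94), its relative FSTL1 (−1.31), TWSG1 (−0.87) and BMPER (1.40 ± 0.36 CPM in D, 2.79 ± 0.46 CPM in C) were among the others. BAMBI, a decoy receptor that is itself a target of the pathway, was not called (0.17 ± 0.11).

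Inside the cell, most regulators of SMADs were not called. Of 20 tested, 4 rose and 3 fell. SKIL, a repressor of SMAD-driven transcription, rose to 59.6 ± 12.1 CPM in D, against 16.6 ± 2.48 CPM in C (log2 fold change 1.85 ± 0.18). PMEPA1, an inhibitor of TGF-beta signals that TGF-beta induces, rose to 48.7 ± 13.2 CPM in D, against 18.8 ± 2.03 CPM in C (1.37 ± 0.19). SKIL and PMEPA1 are, like SMAD7, known feedback genes of TGF-beta. SMURF1 (0.30) and SMURF2 (−0.16), ubiquitin ligases that work with SMAD7, were not called. The counts of this role moved most with the processing, to 10 higher and 2 lower with the length trends removed and to 2 higher and 0 lower without C replicate 1 or 2.

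Of 7 tested TGF-beta target genes, 2 rose and 3 fell. JUNB (1.58 ± 0.19) and KLF10 (0.97 ± 0.14) rose. CCN2 had 290 ± 31.5 CPM in D and 479 ± 35.8 CPM in C (log2 fold change −0.73 ± 0.12) and fell, as did TGFBI (−0.40). Without C replicate 3, and with replicate numbers blocked, 2 of these targets rose and 1 fell. Of 6 tested BMP targets on the list, which leaves out the members, 3 rose and 0 fell. These were the homeobox genes MSX1, with 110 ± 25.7 CPM in D and 48.0 ± 3.22 CPM in C (1.19 ± 0.17), and DLX2 (1.25 ± 0.23), and HEY1 (0.71 ± 0.13). DLX3 (0.46 ± 0.28), DLX5 (−1.07 ± 0.54) and ATOH8 (−0.43 ± 0.20) were not called. With library size only, and without D replicate 3, 3 of the listed BMP targets rose and 1 fell. Among the members that the pathway switches on, ID2 and SMAD7 rose, ID3 and SMAD6 fell and ID1 was not called.

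The E proteins, which the ID proteins bind, all fell. TCF3 had 106, 95.6 and 105 CPM in D and 160, 159 and 159 CPM in C, a log2 fold change of −0.64 ± 0.09 (adjusted p = 0.00059, edgeR). TCF4 had 13.1, 19.7 and 8.97 CPM in D and 31.8, 28.4 and 30.6 CPM in C (−1.11 ± 0.24). TCF12 had 65.1, 87.6 and 56.2 CPM in D and 102, 91.3 and 106 CPM in C (−0.52 ± 0.16). That call was lost when C replicate 1, C replicate 3 or D replicate 1 was left out, and at an adjusted p under 0.01. TCF4 and TCF12 were highest in D replicate 2 and lowest in D replicate 3, like the longest members. With length trends removed, the log2 fold changes of TCF3, TCF4 and TCF12 were −0.556, −0.895 and −0.315, and each was still called. The groups did not overlap for any of the 3.

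**Figure D5:**
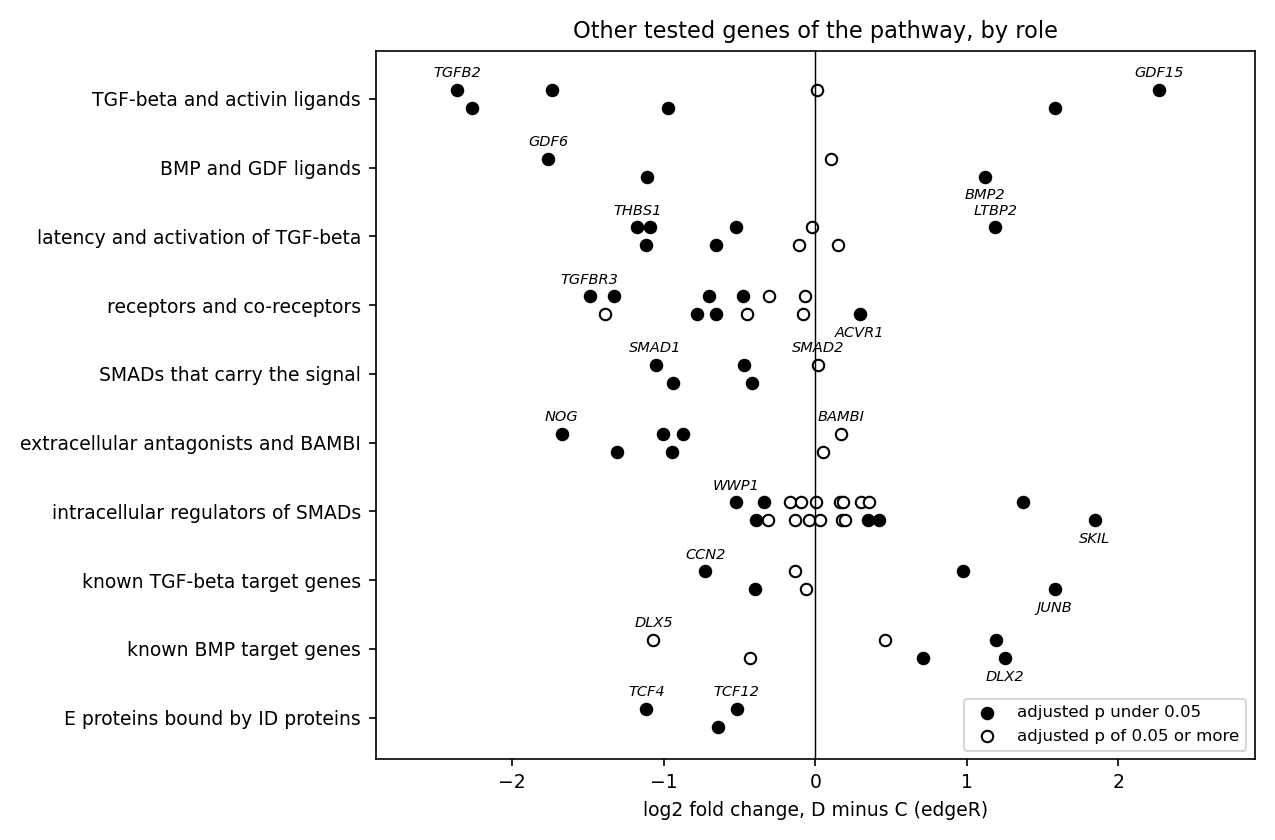
Log2 fold change (D minus C, edgeR) of the other tested genes of the pathway, one row per role, filled where the adjusted p was under 0.05, with the lowest and highest gene of each row named and without BMP7, whose C counts were 1, 0 and 0, and without genes that are not reported here. Filled points lie left of 0 in the rows of antagonists and E proteins, and ligands spread from TGFB2 (−2.36) to GDF15 (2.27).

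The genes whose values across the 6 libraries lay closest to each called member were found over all tested genes, by the root mean square distance between log2 CPM values centred on each gene's mean. For ID2 these were FGF21, SERTAD1 and MYCT1, at distances of 0.12 to 0.16. For ID3 they were CTNNBIP1, UNC119 and NINJ1, at 0.03 to 0.04, and for SMAD7 IL23A, SPTBN5 and PXDNL, at 0.06 to 0.09. Most of the members that fell had equally close genes. TRABD2A, EHHADH and ENDOD1 were closest to SMAD3 (0.04 to 0.06), SRGAP2, TOX and BMI1 to SMAD6 (0.05 to 0.06), and RARG, KNSTRN and VOPP1 to TGFB1 (0.035 to 0.041). BMP4, whose counts are low, had SLC2A6, CCR10 and EPOP, at 0.07 to 0.12. No member was among the 3 closest genes of any other member. With 3 libraries in each of 2 groups, closeness mainly reflects a like difference between D and C.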

How the data were processed

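Libraries came from column-purified total RNA and a SMARTER mRNA kit, per the labels' protocols. The sources used here name no aligner, counting program or strand handling. GRCm38 and mm10, both of the mouse, are the builds in the submitters' processing notes, while symbols are human, so no coordinates or sequences are given. The authors deposited whole-number counts per gene symbol and FPKM values, which equal the count scaled by library total and by a gene length common to all libraries (relative tolerance 0.001, 17144 of 17144 genes). The test on counts used edgeR 4.0.16 in R 4.3.3 (filterByExpr, TMM, quasi-likelihood F test, 2-sided, Benjamini-Hochberg over 12682 genes, group as the only term). The SE was taken as log2 fold change over the root of F. Values are TMM-normalized CPM, mean ± SD, n = 3.

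Alternatives were RLE, upper quartile and library-size scaling, DESeq2 1.42.0, limma-voom and limma-trend (limma 3.58.1) on log2(FPKM + 1) or log2(FPKM + 0.1), a replicate block, other filters, a stricter adjusted p (under 0.01), leaving out each library, and removal of length trends by lowess (span 0.4). Functions were tested on simulated data. A floor of 3 counts equals 0.146 to 0.163 CPM and covers counting error only. Within groups, every pair of libraries differed beyond sampling noise (chi-square per degree of freedom 6.21 to 90.5). The members and gene lists were chosen with earlier results of these data known. Named pathway genes were those called with at least a 2-fold change and a mean of at least 10 counts, the 2 with the lowest p per role and direction, and the E proteins. Other pathway genes were named after their values were seen, to complete a count or as partners of a member. Some genes of the list enter the counts but are not reported here by name.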

Additional observations from a re-analysis of the deposited data

How the results depend on the processing

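Under each of the 19 alternatives, 7 members were called, 2 higher and 5 lower, and TGFBR2 was not. ID1 was never called, and its log2 fold change turned to −0.088 with library size only, −0.18 with length trends removed and −0.12 in each limma-trend fit on FPKM, and ran from −0.18 to 0.25 with one library left out. Genes called higher numbered 2213 and 2209 with log2(FPKM + 1) and log2(FPKM + 0.1) above the FPKM minimum, where 10563 genes were tested, against 3393. Of the calls, 36.2% and 36.3% were then higher, and 37.7% with log2(FPKM + 1) without that minimum, against 49.2%. Pathway genes called lower numbered 23 at an adjusted p under 0.01, against 36, and 25 to 38 with one library left out. Same-numbered D and C libraries deviated from their group means with correlations of 0.01, −0.40 and −0.36, and no library correlated best with its own number. Deviations from a mean of 3 libraries are not independent, and here they also differ along gene length. Whether the numbers pair the libraries therefore cannot be told from these correlations. Under a replicate block, 5671 genes were called in place of 6902, and 12 and 30 pathway genes were called higher and lower. The low counts of BMP4 and BMP7 limit the precision of their changes.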

Other observations

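Of the pathway genes with a row, 24 had too few counts to be tested, and some of them still differed between the groups in their counts. They were picked after their values were seen. GDF5, a cartilage and joint ligand, had 1, 0 and 2 counts in D and 9, 7 and 8 counts in C. GDF7 had 1, 0 and 0 counts in D and 8, 5 and 4 counts in C. CHRD, which encodes the BMP antagonist chordin, had 0, 2 and 2 counts in D and 9, 7 and 5 counts in C, and AMHR2, a receptor gene, 0, 1 and 2 counts in D and 7, 10 and 4 counts in C. BMP8B had 12, 7 and 8 counts in D and 0, 0 and 3 counts in C. BMP10 had 2, 4 and 2 counts in D and 0 in each C library, so that both groups lay near the floor of 3 counts.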
